A study of Homo sapiens with 10 samples.

Results

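The HOX cluster genes encode homeodomain transcription factors that give cells along the head-to-tail axis of the embryo their regional identity. Here they were followed in HEK293, a cell line made from human embryonic kidney. Members were all transcripts whose identifier maps to a gene symbol made of HOX, a cluster letter from A to D and a number. This gave 38 genes of 24994 features in all, of which 16009 carry a gene name. There were 11 members in the HOXA cluster on chromosome 7, 10 in HOXB on chromosome 17, 9 in HOXC on chromosome 12 and 8 in HOXD on chromosome 2. HOXD1 was not analysed here.

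Within a cluster, the number of a gene gives its paralogue group, which is its place along the cluster. Genes with low numbers lie at the 3′ end and act in the hindbrain and neck, and genes with high numbers lie at the 5′ end and act in the trunk, limbs, tail end and urogenital tract. Genes with the same number in different clusters descend from 1 ancestor and keep closely related homeoboxes. Polycomb proteins hold the clusters silent and Trithorax proteins hold them active, so a line keeps a record of where its cells came from. PBX, MEIS and PKNOX proteins, the TALE homeodomain cofactors, bind DNA together with HOX proteins.

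The study sequenced polyadenylated RNA under the conditions used to crosslink RNA to its binding proteins. All 10 libraries came from HEK293. The 2 libraries of 4SU with 365 nm came from cells given 1 mM 4-thiouridine (4SU), a uridine analogue taken up into new RNA, for 12 to 14 h and then irradiated with ultraviolet light at 365 nm. The 2 libraries of 4SU came from cells given 4SU in the same way and not irradiated. The 2 libraries of 254 nm came from cells without 4SU irradiated at 254 nm, and the 2 untreated libraries had neither 4SU nor light. The labels of these 8 libraries name no siRNA. For the remaining pair the labels name neither 4SU nor light. For 1 of its libraries cells had received an siRNA to HuR, the RNA-binding protein encoded by ELAVL1, and for the other an siRNA to GFP. The labels do not state whether libraries A and B of a group stem from different cultures. The p-values therefore cover the spread between these libraries, which may be technical.

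The 8 libraries of the first 4 groups held 2238569 to 3099769 tags and the siRNA pair held 9016803 (HuR siRNA) and 8688262 (GFP siRNA). Of the HEK293 markers, NEFL, INA, KRT18 and IRS4 had at least 13 tags in every library, while KRT8 reached at most 8 tags, and VIM had 48 tags in untreated library A and 0 in untreated library B. The blood marker PTPRC and the keratins KRT5 and KRT14 had at most 1 tag in any library, and COL1A2 at most 2.5. COL1A1 and EPCAM were present in every library, with at least 27 and 426 tags. HOX genes together took 0.0198% and 0.0224% of all tags after 4SU with 365 nm and 0.186% and 0.193% with 4SU. They took 0.0882% and 0.0502% after 254 nm and 0.161% and 0.131% in untreated cells. Cytosolic ribosomal protein genes took the opposite course, with 31.2% and 22.1% of tags after 4SU with 365 nm against 9.81% and 5.76% with 4SU, and 17.8% and 23.5% after 254 nm against 6.45% and 4.95% in untreated cells. The part of this shift in the HOX results was not tested.

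The homeoboxes of the 4 members of paralogue group 13 are shown because these paralogues had the most unlike changes of level with 4SU. Each is the 180 nt homeobox read from the GENCODE 29 transcript, 5′ to 3′ on the coding strand, with the 79 positions at which the 4 are not all identical in capitals.
HOXA13: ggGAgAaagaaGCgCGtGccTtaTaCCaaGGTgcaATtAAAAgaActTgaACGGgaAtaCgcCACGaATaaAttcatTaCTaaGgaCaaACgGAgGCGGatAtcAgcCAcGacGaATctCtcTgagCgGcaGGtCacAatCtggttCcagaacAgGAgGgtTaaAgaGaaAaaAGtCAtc
HOXB13: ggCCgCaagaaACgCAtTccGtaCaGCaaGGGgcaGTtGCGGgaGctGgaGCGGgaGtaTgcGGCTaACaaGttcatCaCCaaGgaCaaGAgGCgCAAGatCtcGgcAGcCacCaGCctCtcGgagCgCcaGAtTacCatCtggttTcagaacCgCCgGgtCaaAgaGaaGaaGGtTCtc
HOXC13: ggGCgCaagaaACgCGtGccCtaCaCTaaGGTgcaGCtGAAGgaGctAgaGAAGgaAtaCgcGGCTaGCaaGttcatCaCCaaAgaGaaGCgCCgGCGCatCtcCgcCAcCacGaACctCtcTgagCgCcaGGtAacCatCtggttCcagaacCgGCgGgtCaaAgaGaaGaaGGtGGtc
HOXD13: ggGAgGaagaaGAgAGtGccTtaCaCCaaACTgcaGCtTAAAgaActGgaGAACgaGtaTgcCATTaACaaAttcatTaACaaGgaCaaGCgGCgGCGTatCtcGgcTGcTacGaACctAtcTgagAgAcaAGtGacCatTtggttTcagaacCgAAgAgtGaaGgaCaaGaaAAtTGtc
HOXA13 and HOXB13 were identical at 69.4% of the bases, the lowest value of the 40 pairs of members within a paralogue group, and HOXB13 and HOXC13 at 80%. The 40 pairs had a median of 81.7% and a highest value of 90.6%, so the group 13 homeoboxes are less alike than most paralogues. Pairs within a cluster had a median of 61.4%. HOXB13, HOXC4, HOXC5, HOXC6 and HOXD9 are uncertain, since in at least 1 library their tags were fractional, that is, divided by the authors among several transcripts. In the RefSeq annotation 11 members overlap another HOX gene and 12 overlap an antisense gene. Whether the counting used strand is not given in the sources used here, so tags of such pairs cannot be told apart.

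HEK293 expressed all 4 clusters, and its HOX mRNA came mostly from the 5′ parts of the clusters. Levels between genes are given per length, as tags per kilobase of transcript per 1000000 tags, here called the level per kilobase. Of the 38 members, 35 reached a level of 1 tag per kilobase in both untreated libraries and the GFP siRNA library. The 3 that did not had under 10 tags in all 10 libraries together. These were HOXB1, a hindbrain gene with 1 tag in the HuR siRNA library and 0 in the other 9, HOXC12 with 7 tags in all, and HOXD12 with 5. A count of 0 allows up to 3 tags, which is 0.333 to 1.34 tags per 1000000 in these libraries. Counting members with at least 3 tags in every library gave 29, and a minimum of 10 tags gave 15. The median over the 38 members in untreated cells was 11.7, against 6.93 over the 14393 named genes with a tag there.

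HOXA9, a gene of the trunk and of blood stem cells that is active in many leukaemias, stood highest, at 148 and 103 tags per kilobase in untreated libraries A and B and 87.9 in the GFP siRNA library. This exceeded the level of 95.7% of named genes. HOXA10, which patterns the uterus, followed with 68.7 and 56.7 in the untreated libraries and 42.3 in the GFP siRNA library. HOXA5, which is needed for lung formation in the mouse, had 47.5 and 49.2 in the untreated libraries and 44.2 in the GFP siRNA library. The untreated libraries of HOXA9 did not overlap those of HOXA10, nor those of HOXA10 the ones of HOXA5. Below them the order ran through HOXD10 at 42.4 ± 7.97 (SD, n = 2 for each level here), HOXB9 at 38.2 ± 4.76 and HOXC4 at 33.8 ± 5.35. HOXA13, which shapes the digits and the urogenital tract, stood at 29.1 ± 2.51 and HOXD9 at 27.6 ± 10.6. Each of these from HOXA5 to HOXD9 overlapped the next in the order. In the whole order 29 of 37 neighbours overlapped, and those apart from the gene below them were HOXA9, HOXA10, HOXA4, HOXC6, HOXC10, HOXC13, HOXB13 and HOXC11.

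**Figure D1:**
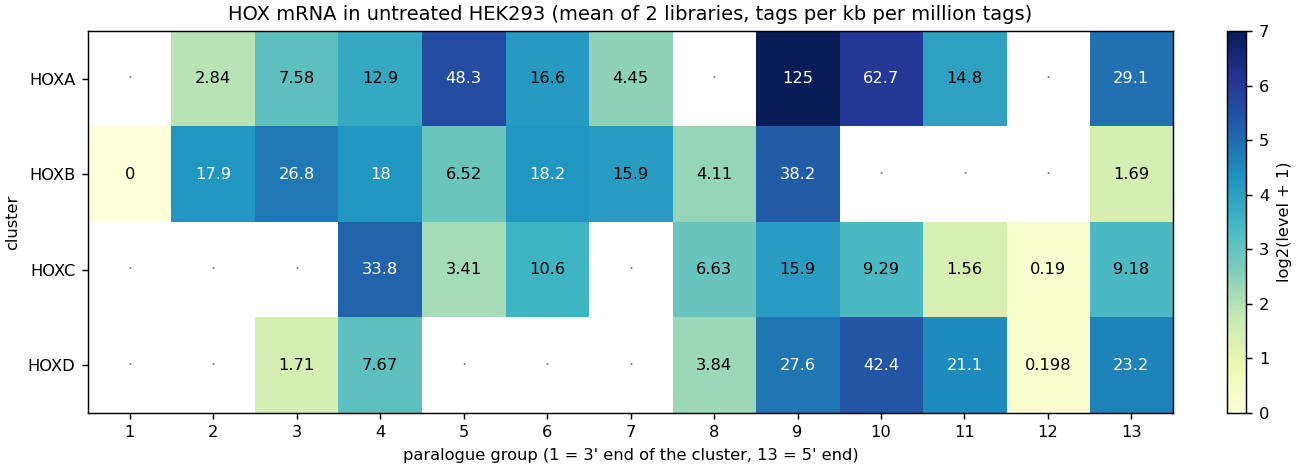
Map of HOX levels in untreated HEK293 cells. Each cell gives the mean of 2 untreated libraries in tags per kilobase per 1000000 tags, by cluster (rows) and paralogue group (columns), with colour on a log2(level + 1) scale. Dots mark places with no value shown. HOXA9 is highest at 125, and HOXB1, HOXC12 and HOXD12 lie under 1.

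By position, paralogue groups 9 to 13 held 61% and 60.7% of the summed HOX level in untreated libraries A and B and 60.3% in the GFP siRNA library. Groups 4 to 8 held 30.5%, 30.2% and 31.2% in the same libraries, and groups 1 to 3 held 8.45%, 9.14% and 8.44%. The shares by position thus moved by under 2 percentage points between the 3 libraries. Paralogue group 9 alone, the HOXA9, HOXB9, HOXC9 and HOXD9 genes, held 31.5% and 27.7% in the untreated libraries and 27.6% in the GFP siRNA library. By cluster, HOXA held 47.3% in each untreated library and 41% in the GFP siRNA library, HOXB 21.7% and 20.7% against 22.7%, HOXC 12.8% and 13.4% against 18.1%, and HOXD 18.2% and 18.6% against 18.2%. HOXA was the largest cluster by level in all 3 libraries, and HOXC the smallest, although level with HOXD in the GFP siRNA library.

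The levels of the 3′ genes were unequal. HOXA2, the selector gene of the second pharyngeal arch, had 1.26 and 4.43 tags per kilobase in untreated libraries A and B, and its 1.48 in the GFP siRNA library lay between them. HOXB2 and HOXB3, also hindbrain genes, stood above the HOX median, at 17.9 ± 6.65 and 26.8 ± 2.8, and HOXB1 had no tag in these libraries. At the other end, HOXB13, the prostate gene, had only 1.61 and 1.78 in the untreated libraries and 9.41 in the GFP siRNA library. HOXD13, a digit gene, had 30.3 and 16 in the untreated libraries and 27.2 in the GFP siRNA library. HOXC13, which controls hair keratins, had 9.27 and 9.08 in the untreated libraries and 8.93 in the GFP siRNA library. The order of the 38 levels in untreated library A had a Spearman correlation of 0.95 with that in untreated library B, and the untreated mean one of 0.87 with the GFP siRNA library. These are descriptions over genes that share each library.

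**Figure D2:**
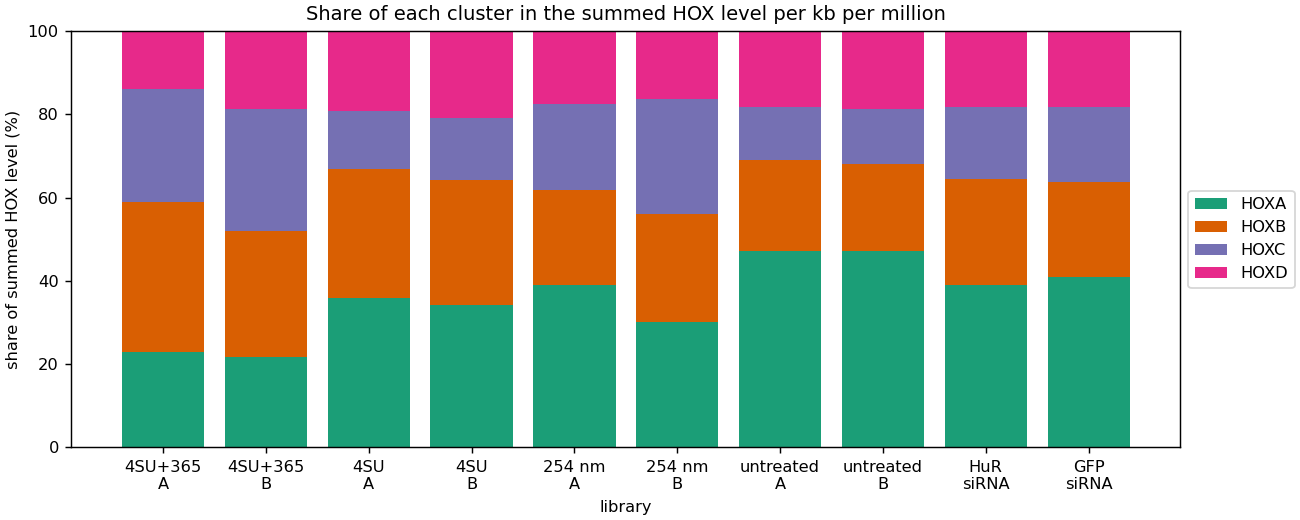
Share of each HOX cluster in the summed HOX level (tags per kilobase per 1000000 tags, in percent) in each of the 10 libraries. HOXA holds 22.9% and 21.6% after 4SU with 365 nm, 36% and 34.3% with 4SU, 38.9% and 30.2% after 254 nm and 47.3% in each untreated library.

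Changes between groups were tested on counts with edgeR's quasi-likelihood test over all 13731 genes that passed the low-count filter, with Benjamini-Hochberg adjustment over these. The filter passed 35 of the 38 members, all but HOXB1, HOXC12 and HOXD12. Genes are called at an adjusted p under 0.05. Levels in these comparisons are TMM-normalised tags per 1000000 (CPM), which compare a gene between libraries and not between genes. In a bulk library, a lower level in every cell and a loss of cells that express a gene cannot be told apart.

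With 4SU alone, 4 of 35 HOX genes rose and 1 fell. Over all tested genes 7.54% were called, 3.85% higher and 3.69% lower. The median log2 fold change was 0.61 over the HOX genes and 0.02 over all genes, and 29 of 35 HOX values lay above 0. Over all genes the split was 528 higher and 507 lower, and it was 432 and 239 with library totals and 201 and 330 by DESeq2. The HOXB cluster held 3 of the 4 calls, and all 9 of its tested genes had values above 0, from 0.35 to 2.0. In HOXA, 7 of 11 values lay above 0, with a median of 0.04.

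HOXA13 was the member that fell. It had 10.2 and 11.4 CPM in 4SU libraries A and B, against 42.2 and 49.2 CPM in untreated libraries A and B. Both 4SU libraries lay below both untreated libraries. The mean was 10.8 ± 0.889 CPM with 4SU and 45.7 ± 4.98 CPM in untreated cells (SD, n = 2 each), a log2 fold change of -2.07 (SE 0.37, edgeR adjusted p 0.000285), and the call held under every alternative tried.

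The largest increase among the calls was in HOXD3, which acts in the neck and in cell adhesion. HOXD3 had 12.4 and 11.6 CPM with 4SU, against 1.78 and 3.18 CPM in untreated cells. HOXB13 had 13 and 12.7 CPM with 4SU, against 2.97 and 3.44 CPM in untreated cells. Neither gene's groups overlapped, and both started from few tags, 21 for HOXD3 and 28.2 for HOXB13 in the untreated libraries together. The log2 fold change was 2.29 (SE 0.50, edgeR adjusted p 0.00255) for HOXD3 and 2.0 (SE 0.47, edgeR adjusted p 0.00505) for HOXB13, whose tags were partly split. These calls too held under every alternative. Per kilobase, HOXB13 had 6.59 and 7.31 tags with 4SU, against 1.61 and 1.78 in untreated cells. It had 9.41 in the GFP siRNA library and 7.4 in the HuR siRNA library, whose labels name no 4SU. The level of HOXB13 thus also differed between libraries without 4SU, and the cause was not tested. Paralogue group 13 thus contained the only member called lower and a member called higher, while HOXC13 and HOXD13 were not called, at -0.19 (SE 0.39) and -0.63 (SE 0.38).

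HOXB8, a mid-trunk gene, had 16.7 and 13.5 CPM with 4SU, against 5.15 and 4.24 CPM in untreated cells. HOXB2 had 53.4 and 41.2 CPM with 4SU, against 22.4 and 13.5 CPM in untreated cells. In both genes the 4SU libraries lay above the untreated ones. Their log2 fold changes were 1.66 (SE 0.44, edgeR adjusted p 0.0144) and 1.38 (SE 0.37, edgeR adjusted p 0.0161). The HOXB8 call was lost without 4SU library A (adjusted p 0.209), 4SU library B (0.0539) or untreated library B (0.0529), and the HOXB2 call without 4SU library A (0.205) or untreated library B (0.107). The number of HOX calls was 3 without 4SU library A or untreated library B and 8 without untreated library A. HOXA7 and HOXB9 were not called, at 1.34 (adjusted p 0.0513) and 0.97 (adjusted p 0.0556).

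The genes with the highest untreated levels were not called. HOXA9 had 184 and 138 CPM with 4SU, against 189 and 135 CPM in untreated cells, and its groups overlapped (log2 fold change -0.01, SE 0.34). HOXA10 had 88.5 and 75.9 CPM with 4SU, against 112 and 95.3 CPM in untreated cells, a log2 fold change of -0.33 (SE 0.33). HOXA5 stood at 0.04 (SE 0.34) and HOXD10 at 0.14 (SE 0.33). Across the 35 members the log2 fold change had a Spearman correlation of 0.34 with GC content and -0.47 with the untreated level. The untreated level comes from the same untreated libraries as the fold change. With length the correlation was -0.13, with U content -0.21 and with position -0.22. These are descriptions over genes of the same libraries. With the length and GC trends removed, a setting added after the data were seen, the HOX median was 0.37, with 6 genes higher and 1 lower.

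**Figure D3:**
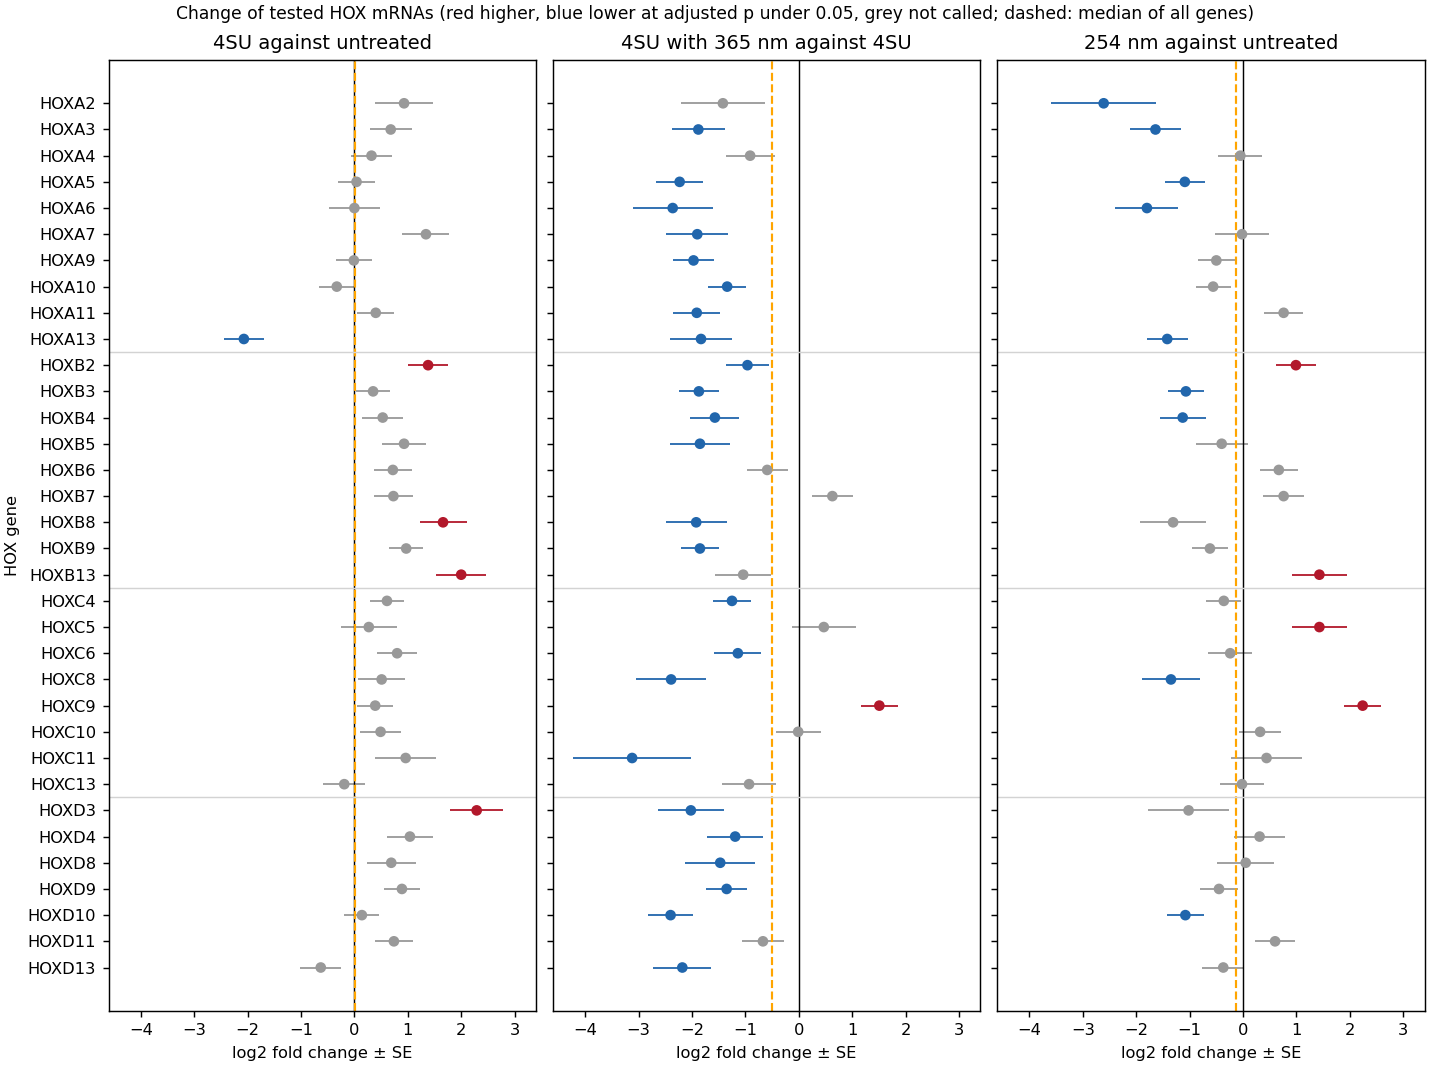
Log2 fold change with its standard error for 34 of the 35 tested HOX genes in the 3 comparisons, in order of cluster and paralogue group. Red marks a gene called higher and blue one called lower at an edgeR adjusted p under 0.05, and the dashed line is the median of all genes. With 4SU alone, 4 genes are red and HOXA13 is blue. After 365 nm light, 24 are blue and HOXC9 is red, a direction that is -0.41 when library totals replace the TMM factors. After 254 nm, 4 are red and 9 blue.

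In cells with 4SU, 365 nm light was followed by lower levels of most HOX genes. Of 35 tested, 24 fell and 1 rose, where over all genes 59.9% were called, 33.7% lower and 26.1% higher. The median log2 fold change was -1.57 over the HOX genes and -0.50 over all genes. All 11 HOXA genes and all 7 HOXD genes had values below 0, and HOXA had the lowest cluster median, -1.88. By position the medians were -1.80 for groups 1 to 3, -1.47 for groups 4 to 8 and -1.59 for groups 9 to 13. The median of all genes moved with the scaling, to -2.39 with library totals, where the HOX median was -3.43 with 34 genes lower and 0 higher, and to -0.25 with RLE factors, where the HOX median was -1.31 with 20 lower and 2 higher. The split of calls over all genes moved too, with 1033 higher and 9946 lower with library totals against 3590 higher and 4632 lower with TMM factors, 3790 and 2890 by DESeq2, and 3599 and 2863 after removal of each library's trend on length. This comparison and that of 4SU with untreated cells share the 4SU libraries.

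HOXA9 had 50.3 and 32.7 CPM in 4SU with 365 nm libraries A and B, against 184 and 138 CPM in 4SU libraries A and B. HOXA10 had 33.5 and 31.3 CPM after 365 nm, against 88.5 and 75.9 CPM with 4SU. In both genes the libraries after 365 nm lay below those with 4SU. The log2 fold changes were -1.97 (SE 0.38, edgeR adjusted p 3.39e-05) for HOXA9 and -1.34 (SE 0.36, edgeR adjusted p 0.00173) for HOXA10. HOXD10, a gene of lumbar motor neurons, had 12.3 and 8.36 CPM after 365 nm, against 44.4 and 61.3 CPM with 4SU. Its log2 fold change of -2.40 (SE 0.42, edgeR adjusted p 6.81e-06) had the smallest p of the members. HOXB9, a gene of the thorax, had 40.2 and 30.6 CPM after 365 nm, against 143 and 110 CPM with 4SU, a log2 fold change of -1.85 (SE 0.36, edgeR adjusted p 3.16e-05). HOXB3 had 25.7 and 17.4 CPM after 365 nm, against 64.4 and 90.3 CPM with 4SU. These 5 genes, from 3 clusters, fell 2.54-fold to 5.26-fold. Their groups did not overlap, but neither did those of some members not called, such as HOXA4 and HOXD11.

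The 4SU with 365 nm libraries held few HOX tags, 474.5 and 643, against 4258 and 5908 in the 4SU libraries. HOXA3, which acts in thymus and parathyroid formation in the mouse, had 7 and 9 tags after 365 nm, against 97 and 128 with 4SU. HOXA5 had 10 and 10 tags after 365 nm, against 149 and 215 with 4SU. HOXC8, a gene of brachial motor neurons, had 2 and 4 tags after 365 nm, against 47 and 74 with 4SU. Their log2 fold changes were -1.88 for HOXA3, -2.23 for HOXA5 and -2.39 for HOXC8, with edgeR adjusted p of 0.00156, 4.22e-05 and 0.00211. HOXC11 had 0 and 1 tags after 365 nm, against 17 and 18 with 4SU. Its log2 fold change was -3.12 (SE 1.11, edgeR adjusted p 0.0154), with a 95% counting interval of -8.55 to -0.63. DESeq2 did not call HOXC11 (DESeq2 adjusted p 0.11).

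Under every alternative tried, 9 decreases kept their calls: HOXA3, HOXA5, HOXA9, HOXA10, HOXA11, HOXB3, HOXB9, HOXC8 and HOXD10. The number of calls was 13 without 4SU with 365 nm library B. Lost without that library were HOXA6 (adjusted p 0.121), HOXA7 (0.0525), HOXA13 (0.101), HOXB2 (0.571), HOXB5 (0.0931), HOXB8 (0.126), HOXC4 (0.0585), HOXC6 (0.194), HOXC11 (0.064), HOXD4 (0.201), HOXD8 (0.325) and HOXD13 (0.0561). Without library A of that group the calls of HOXB4, HOXD3 and HOXD9 were lost, at log2 fold changes of -1.17, -1.50 and -0.98. Also lost there were HOXC6 (log2 fold change -1.28), HOXC11 (-2.46), HOXD4 (-1.18) and HOXD8 (-1.78), which were thus lost without either library of that group. HOXB2, HOXC6, HOXC11, HOXD4 and HOXD8 were also lost without single 4SU or 254 nm libraries, at adjusted p of 0.0546 to 0.227. Weighted by tags, the median length of the transcripts was 1147 and 1431 nt after 365 nm, against 2373 and 2850 nt with 4SU. The tested HOX transcripts had a median length of 2018 nt, against 3101 nt over tested genes with a sequence, and after removal of each library's trend on length 27 HOX genes were lower and 1 higher.

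HOXC9, which sets thoracic identity in motor neurons, was the exception. It had 65.9 and 56.4 CPM after 365 nm, against 24 and 18.9 CPM with 4SU, and the groups did not overlap. The log2 fold change was 1.51 (SE 0.35, edgeR adjusted p 0.000367), but it was -0.41 with library totals (adjusted p 0.372). HOXB7 and HOXC5, not called, stood at 0.63 (SE 0.39) and 0.47 (SE 0.60), and were -1.28 and -1.41 with library totals. HOXC10, which lies beside HOXC9 in the cluster and acts in lumbar motor neurons, had 16.8 and 16 CPM after 365 nm, against 15.8 and 17.1 CPM with 4SU (log2 fold change -0.01, SE 0.42, and -1.92 with library totals). HOXC8 on the other side of HOXC9 fell, as given above.

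**Figure D4:**
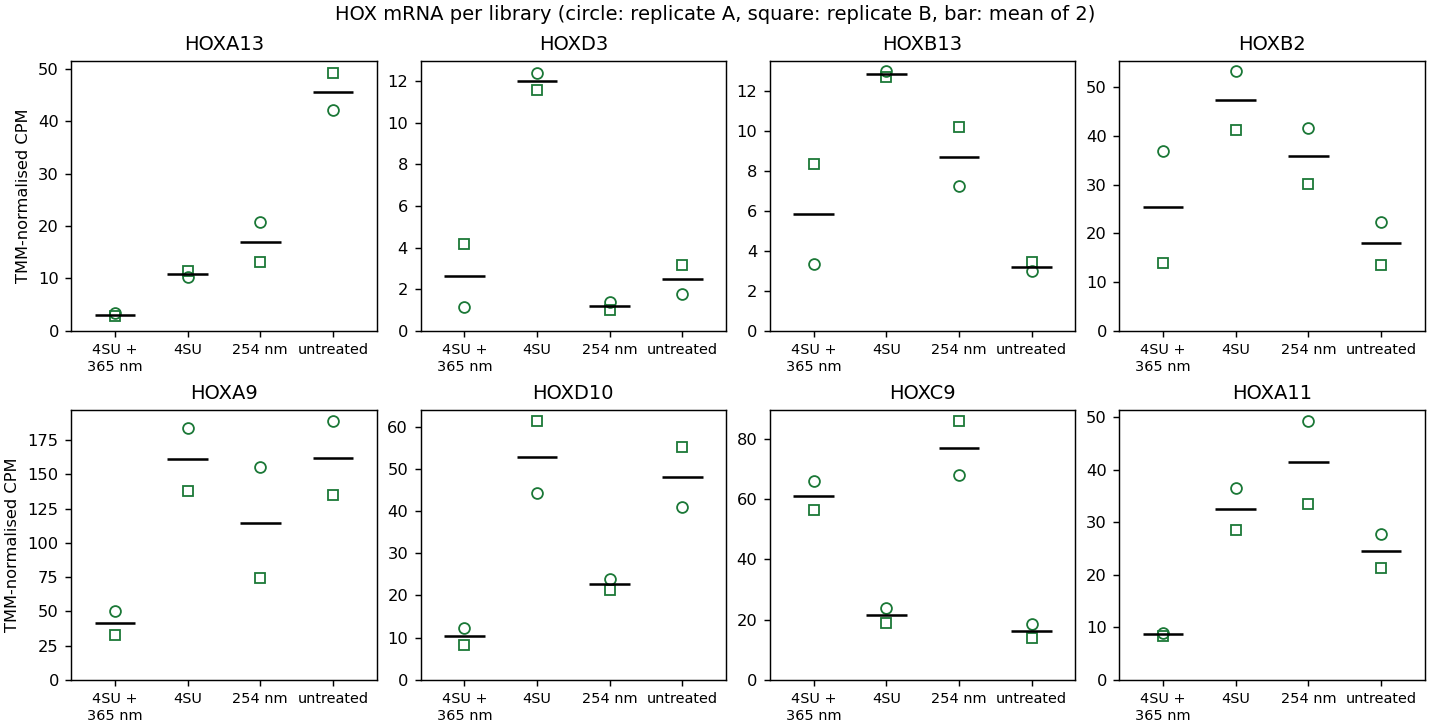
TMM-normalised CPM of 8 HOX genes in each of the 8 libraries (circle for library A, square for library B, bar for the mean of 2). HOXA13 is highest in untreated cells and lowest after 4SU with 365 nm, HOXD3 is highest with 4SU, and HOXC9 is highest in both irradiated groups, although its direction after 365 nm is -0.41 with library totals.

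Light at 254 nm, given to cells without 4SU, was followed by changes in both directions. Of 35 HOX genes, 9 fell and 4 rose, where over all genes 53.2% were called, 28% lower and 25.2% higher, so that the HOX share called lower (25.7%) was near that of all genes. The median log2 fold change was -0.37 over the HOX genes and -0.14 over all genes. Of the 9 decreases, 5 were in HOXA. With library totals 20 HOX genes were lower and 1 higher, with a HOX median of -1.20 and an all-gene median of -0.99, and over all genes the split was 1390 higher and 6454 lower against 3459 and 3848 with TMM factors. After removal of each library's trend on length 11 HOX genes were lower and 2 higher, and after removal of the trends on length and GC content, a setting added after the data were seen, 18 and 1. This comparison shares the untreated libraries with that of 4SU alone.

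HOXC9 again rose. It had 68.2 and 86 CPM in 254 nm libraries A and B, against 18.4 and 14 CPM in untreated libraries A and B. The groups lay far apart, and the log2 fold change was 2.24 (SE 0.35, edgeR adjusted p 1.86e-06). It was 1.36 with library totals, 1.42 after removal of the trend on length and 0.97 after removal of the trends on length and GC content, and it was called in each. HOXC9 was the single HOX call of this comparison kept under every alternative. HOXB13 had 7.23 and 10.2 CPM after 254 nm, against 2.97 and 3.44 CPM in untreated cells, a log2 fold change of 1.43 (SE 0.51, edgeR adjusted p 0.0162). HOXC5 had 11.3 and 7.77 CPM after 254 nm, against 4.95 and 1.85 CPM in untreated cells, a log2 fold change of 1.43 (SE 0.51, edgeR adjusted p 0.0173), and both of these genes have split tags. HOXB2 had 41.6 and 30.1 CPM after 254 nm, against 22.4 and 13.5 CPM in untreated cells. Its log2 fold change of 0.99 (SE 0.38, edgeR adjusted p 0.0274) was -0.38 after removal of the length and GC trends. None of HOXB13, HOXC5 and HOXB2 was called with library totals, at adjusted p of 0.39, 0.355 and 0.781.

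HOXA13 had 20.8 and 13.1 CPM after 254 nm, against 42.2 and 49.2 CPM in untreated cells. Its log2 fold change was -1.42 (SE 0.38, edgeR adjusted p 0.00156). HOXA3 had 8.13 and 1.94 CPM after 254 nm, against 14.5 and 17.7 CPM in untreated cells, a log2 fold change of -1.64 (SE 0.48, edgeR adjusted p 0.00377). In both genes the 254 nm libraries lay below the untreated ones. HOXA2 had 2 and 0 tags after 254 nm, against 7 and 19 tags in untreated cells, a log2 fold change of -2.61 (SE 0.98, edgeR adjusted p 0.0231) with a 95% counting interval of -5.77 to -0.66. HOXA6 fell by 1.80, HOXC8 by 1.35, HOXB4 by 1.13, HOXA5 by 1.09, HOXD10 by 1.08 and HOXB3 by 1.07 on the log2 scale. HOXA9 had 155 and 74.3 CPM after 254 nm, against 189 and 135 CPM in untreated cells, and its groups overlapped (log2 fold change -0.50, SE 0.35).

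Of these 13 calls, 12 were lost without at least 1 library. Without 254 nm library B there were 3 increases and 0 decreases. The decreases lost were HOXA2 (adjusted p 0.22), HOXA3 (0.162), HOXA5 (0.193), HOXA6 (0.0679), HOXA13 (0.0604), HOXB3 (0.0746), HOXB4 (0.285), HOXC8 (0.472) and HOXD10 (0.0845), and the increase lost was HOXB13 (0.151). Without 254 nm library A there were 8 calls, and HOXB2 (0.172), HOXC5 (0.143), HOXA6 (0.0506), HOXB3 (0.0529) and HOXD10 (0.0525) were lost. HOXA2 (0.318), HOXB2 (0.161) and HOXC5 (0.143) were lost without untreated library B, and HOXA6 (0.375), HOXB4 (0.261) and HOXC8 (0.093) without untreated library A. The 254 nm libraries also differed from each other in their HOX share, given above. Weighted by tags, their median transcript was 1534 and 1305 nt long, against 2667 and 3029 nt in the untreated libraries.

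The 2 light treatments were compared by the difference of their effects, the log2 fold change of 365 nm against 4SU minus that of 254 nm against untreated. It was below 0 for 34 of 35 HOX genes, with a median of -0.99 against -0.15 over all genes. Of the HOX genes 4 were called lower and 0 higher, where 17.1% of all genes were called, 7.08% lower and 9.99% higher. At an unadjusted p under 0.05 there were 12 HOX genes and 4335 of all genes, and DESeq2 called 2 HOX genes, both lower. The split over all genes was 1372 higher and 972 lower, and it was 1673 and 607 with RLE factors, 1539 and 440 by DESeq2, and 498 and 4430 with library totals.

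HOXA11, which patterns the kidney, uterus and forearm, had 8.93 and 8.36 CPM after 4SU with 365 nm, against 36.5 and 28.5 CPM with 4SU. It had 49.3 and 33.5 CPM after 254 nm, against 27.7 and 21.2 CPM in untreated cells. In these CPM the libraries after 365 nm lay below, and those after 254 nm above, their controls. HOXA11 fell after 365 nm, with a log2 fold change of -1.91 (SE 0.44, edgeR adjusted p 0.000355). After 254 nm its log2 fold change of 0.76 was not called (SE 0.36, edgeR adjusted p 0.0692), and it was -0.08 with library totals, where the groups overlapped at 48.7 and 26.2 tags per 1000000 after 254 nm, against 45.2 and 33.4 in untreated cells. The difference was -2.66 (SE 0.57, edgeR adjusted p 0.000783) and was called under every alternative. HOXB13 had 3.35 and 8.36 CPM after 4SU with 365 nm, against 13 and 12.7 CPM with 4SU, a log2 fold change of -1.04 that was not called (edgeR adjusted p 0.0841), where 254 nm gave 1.43, and the difference was -2.47 (SE 0.73, edgeR adjusted p 0.0151). HOXB2 had 36.9 and 13.9 CPM after 4SU with 365 nm, against 53.4 and 41.2 CPM with 4SU. Its difference was -1.95 (SE 0.56, edgeR adjusted p 0.0122), and that of HOXA9 was -1.48 (SE 0.51, edgeR adjusted p 0.04). The HOXB13 call was lost without 4SU with 365 nm library A (0.0942) or 254 nm library B (0.0751), and the HOXB2 call without 4SU with 365 nm library B (0.184), 4SU library A (0.0515) or 254 nm library A (0.0652). HOXA9 lost its call without 4SU with 365 nm library A (0.0629) or B (0.258), 4SU library A (0.143), 254 nm library A (0.385) or untreated library B (0.0902), and also with RLE factors (0.0853), upper-quartile factors (0.0536), DESeq2 (0.101) and the trend on length removed (0.105) or on length and GC content (0.0756). DESeq2 did not call HOXB13 (0.0559). Leaving out 1 library gave 2 to 10 calls, with 2 without either 4SU with 365 nm library, 4SU library A or 254 nm library A, and 10 without untreated library A.

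The HuR siRNA library was set against the GFP siRNA library without a test, since each siRNA had 1 library. ELAVL1, the targeted gene, had 638 tags in the HuR siRNA library, against 1905 in the GFP siRNA library, a log2 ratio of -1.53. HOX levels were mostly somewhat higher in the HuR siRNA library. Of the 35 members with at least 10 tags in the pair, 28 had a log2 ratio above 0, and the median was 0.38 against 0.00 over 17728 genes. With library totals the medians were 0.27 and -0.10. The 2 libraries also differed in make-up. Cytosolic ribosomal protein genes took 7.05% of tags in the HuR siRNA library, against 4.88% in the GFP siRNA library. Weighted by tags, the median transcript was 2674 nt long in the HuR siRNA library, against 3020 nt in the GFP siRNA library. The part of this in the HOX ratios was not tested. The 95% counting interval, which covers counting error only, lay above 0 for 20 HOX genes, below 0 for 2 and across 0 for 13. Over all genes the intervals lay above 0 in 27.4% and below 0 in 28.4%. No HOX gene reached a 2-fold change, which 4.43% of all genes did upward and 6.26% downward.

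HOXA4, a gene of the neck region, had 193 tags in the HuR siRNA library, against 101 in the GFP siRNA library, a log2 ratio of 0.97 with an interval of 0.63 to 1.35. HOXA3 had 274 tags in the HuR siRNA library, against 152 in the GFP siRNA library, a log2 ratio of 0.89 with an interval of 0.61 to 1.19. These were the largest ratios of the members. In HOXB, 8 of the 9 measured genes lay above 0, from 0.11 for HOXB3 to 0.79 for HOXB8, and HOXB13 lay at -0.24 with an interval of -0.52 to 0.03. HOXA9 had 1962 tags in the HuR siRNA library, against 1586 in the GFP siRNA library, a log2 ratio of 0.36 with an interval of 0.26 to 0.45. HOXA13 had 214 tags in the HuR siRNA library, against 357 in the GFP siRNA library, a log2 ratio of -0.68 with an interval of -0.94 to -0.44. HOXA10 was the other member whose interval lay below 0, at -0.22. HOXA13, the lowest of the members here, was also called lower in the comparisons of 4SU alone, 365 nm and 254 nm. Of these, 4SU and 254 nm share the untreated libraries, and 4SU and 365 nm share the 4SU libraries. Only its call with 4SU alone held under every alternative. After 365 nm HOXA13 had 3 and 4 tags, against 36 and 61 with 4SU, and that call was lost without 4SU with 365 nm library B. The 254 nm call was lost without 254 nm library B.

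**Figure D5:**
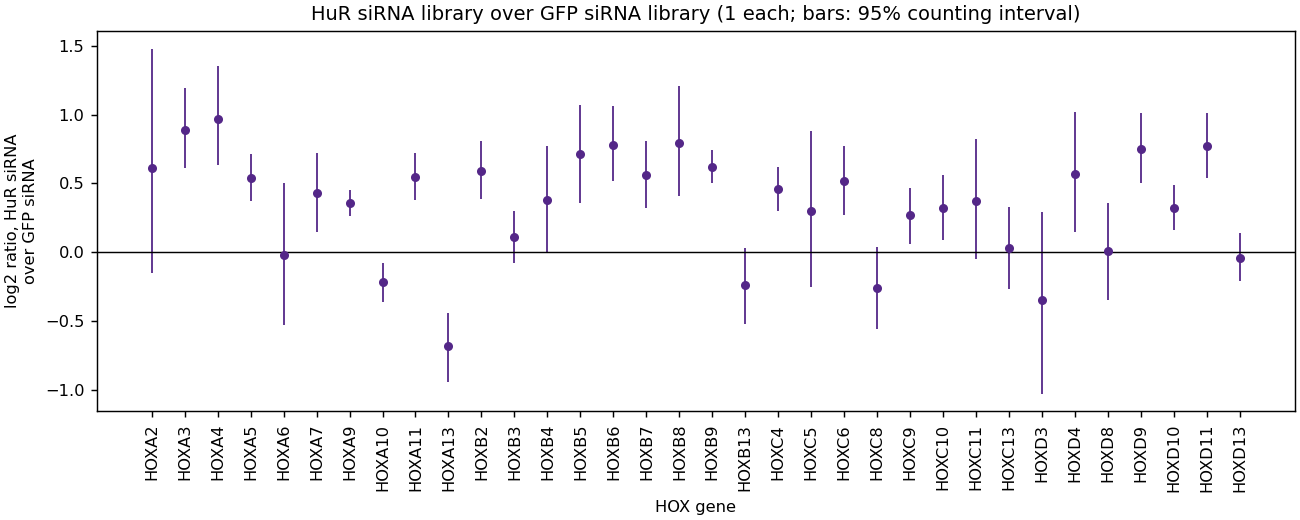
Log2 ratio of the HuR siRNA library over the GFP siRNA library for 34 of the 35 HOX genes with at least 10 tags in the pair, with the 95% counting interval. HOXA4 is highest at 0.97 and HOXA13 lowest at -0.68. There is 1 library for each siRNA.

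HuR binds U-rich and AU-rich stretches of mRNA. The motif TATTTAT, searched on the transcript strand only, occurred in the GENCODE 29 transcripts of 16 of the 38 HOX genes (42.1%) and in 33.7% of 15687 transcripts of all genes. HOXA3 is shown because its GENCODE transcript has the length of the deposited one (3396 nt) and its ratio was among the highest. Each line gives 30 bases with the motif in capitals, named by the base of the transcript at which the motif starts.
HOXA3 at 1899: tatcatagcgaTATTTATctcttcctgctc
HOXA3 at 2201: acagtcagattTATTTATatttttttgcaa
HOXA3 at 2247: gttttaaatatTATTTATccccatccgttc
HOXA3 at 2267: ccatccgttcgTATTTATattaaagaattc
Among HOX genes with 10 tags, 11 of 15 with the motif had a log2 ratio above 0 (median 0.38), and 17 of 20 without it (median 0.45). Over all genes, 31.2% of 4601 with the motif lay above 0 (median -0.32), and 59% of 8123 without it (median 0.15). The values of HOX genes with the motif thus lay mostly on the other side of 0 from those of all genes with it, a description of this pair of libraries. GENCODE transcripts can differ in length from the deposited ones, and 21 of the 38 HOX transcripts were within 10%.

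The TALE cofactors of HOX proteins were measured in the same libraries. MEIS1 is named here after its values were seen. It had a level of 4.74 and 4.31 tags per kilobase in untreated libraries A and B. Of 9 genes in the list, 8 were tested. With 4SU alone 0 of 8 were called by edgeR, 0 had an unadjusted p under 0.05, and DESeq2 called 0. After 365 nm, 6 fell and 1 rose, with a median log2 fold change of -1.55, where 33.7% of all genes were called lower and 26.1% higher with a median of -0.50. After 254 nm 5 fell, with a median of -1.22, where 28% of all genes were called lower with a median of -0.14. DESeq2 called fewer of the list, 3 after 365 nm and 3 after 254 nm. MEIS1 averaged 1.46 ± 1.09 CPM after 4SU with 365 nm, against 7.18 ± 2.56 CPM with 4SU (SD, n = 2 each). After 254 nm MEIS1 averaged 3.47 ± 1.48 CPM, against 9.02 ± 0.407 CPM in untreated cells. MEIS1 was thus called lower in both irradiated groups (edgeR adjusted p 0.00717 after 365 nm and 0.0304 after 254 nm). Its log2 fold change after 365 nm, -2.45, was the largest decrease of the tested list. It rests on few tags, 2 and 1 after 365 nm, against 19 and 48 with 4SU. After 254 nm there were 10 and 5 tags, against 47 and 33 in untreated cells.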

How the data were processed

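Per the labels, polyadenylated RNA of HEK293 cells was sequenced in 10 libraries. Each deposited table lists, per the file headers, transcripts with the authors' estimated count of tags, fractional where tags were split, the transcript length as another column in nucleotides, and the authors' expression value, a score of tags per 100 nt per 1000000 tags. Aligner and genome build are not given in these sources. Counts of 25005 transcripts were summed to 24994 features with names from the RefSeq table (GRCh38.p14, used for names and neighbours) and GENCODE 29, and rounded to whole numbers.

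The 8 libraries of the 4 replicated groups were fitted in 1 model with edgeR 4.0.16 (R 4.3.3) with TMM factors and filterByExpr, and tested by two-sided quasi-likelihood tests in 4 contrasts. There were 4 residual degrees of freedom. The SE is the size of the log2 fold change over the root of F. The siRNA pair was compared by log2 ratios with TMM factors and a prior count of 2, and exact 95% counting intervals. In the 8 libraries 3 tags equal 0.968 to 1.34 tags per 1000000. Intervals and floors cover counting error only. All HOX genes may be named, although some items are not reported here, and of the other lists at most 6 called genes per comparison, by size. The members and lists were chosen with earlier results of these data known. Alternatives were RLE, upper-quartile and no factors, DESeq2 1.42.0, filters, the compared groups alone, a replicate block, length and GC trends, a stricter threshold (adjusted p 0.01), and omission of single libraries, where the remaining lone sample is assumed to vary like the other groups. The test was checked on simulated data for 4SU against untreated only, with a small set of genes changed equally in both directions. That check does not cover the light comparisons, where 59.9% (365 nm) and 53.2% (254 nm) of all genes were called. Figures used matplotlib.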

Additional observations from a re-analysis of the deposited data

Results flagged for a closer look

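For 4 HOX genes the effect of 365 nm light on cells with 4SU differed from that of 254 nm light on cells without 4SU, by edgeR's test of the difference itself over all genes. These were 11.4% of the 35 tested members, all lower. Over all genes 17.1% were called, 7.08% lower and 9.99% higher. The difference, 365 nm effect minus 254 nm effect, was -2.66 on the log2 scale for HOXA11 (adjusted p 0.000783), -2.47 for HOXB13 (adjusted p 0.0151), -1.95 for HOXB2 (adjusted p 0.0122) and -1.48 for HOXA9 (adjusted p 0.04). With TMM factors, HOXA11, HOXB13 and HOXB2 had effects of -1.91, -1.04 and -0.96 at 365 nm and of 0.76, 1.43 and 0.99 at 254 nm. Of these, the 365 nm effect of HOXB13 (adjusted p 0.0841) and the 254 nm effect of HOXA11 (adjusted p 0.0692) were not called. With library totals the 254 nm effects were -0.08 for HOXA11, 0.56 for HOXB13 and 0.15 for HOXB2, and none of them was called. HOXB2 stood at -0.38 there after removal of the length and GC trends. HOXA9 had an effect of -1.97 at 365 nm, which was called. Its effect of -0.50 at 254 nm was not called (edgeR adjusted p 0.231), and its groups overlapped there. The difference was called under every alternative for HOXA11. It was lost for HOXB13 by DESeq2 (0.0559) and for HOXA9 with RLE factors (0.0853), upper-quartile factors (0.0536), DESeq2 (0.101) and the trend on length removed (0.105) or on length and GC content (0.0756), and for HOXB13, HOXB2 and HOXA9 without single libraries. The presence of 4SU and the wavelength cannot be told apart in this difference.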

How the results depend on the processing

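The HOX calls with 4SU were 5 and became 3 by DESeq2, 3 at an adjusted p of 0.01, and 3 to 8 when 1 library was left out. After 365 nm they were 25, and 13 to 25 when 1 library was left out. After 254 nm they were 13 and became 21 with library totals, 7 by DESeq2, 6 at an adjusted p of 0.01 and 3 to 13 when 1 library was left out. For the difference they were 4 and became 24 with library totals, 2 by DESeq2, 1 at an adjusted p of 0.01 and 2 to 10 when 1 library was left out. The 25 calls after 365 nm became 34 with library totals, 18 by DESeq2 and 20 at an adjusted p of 0.01. Not called there by DESeq2 were HOXA6, HOXB2, HOXC6, HOXC11, HOXD3, HOXD4 and HOXD8. With a replicate block of the letters A and B the calls were 8, 25, 14 and 6 for 4SU, 365 nm, 254 nm and the difference. With 4SU the block called HOXA7 (adjusted p 0.0109), HOXB9 (0.0266) and HOXD9 (0.0419) in addition. The labels do not say that a letter marks a shared culture or batch, and each comparison has only 2 letters, so the letters are not taken to pair the samples. Deviations of same-lettered libraries correlated at 0.127 to 0.346 between the groups compared and at -0.081 to 0.346 over all groups. Over all genes, the 1035 calls with 4SU were 531 by DESeq2, 671 with library totals, 685 with the compared groups alone, 1693 with the replicate block 369 at an adjusted p of 0.01, and 239 to 2679 when 1 library was left out. The 8222 calls after 365 nm were 5221 without 4SU with 365 nm library B, the 7307 after 254 nm were 3120 with the length and GC trends removed, a setting chosen after seeing the data, and the 2344 of the difference were 4928 with library totals 1133 at an adjusted p of 0.01 and 1096 to 3513 when 1 library was left out. Reversed with library totals after 365 nm were HOXB7 (-1.28), HOXC5 (-1.41) and HOXC9 (-0.41), and with the length and GC trends removed after 254 nm HOXB2 (-0.38), HOXD4 (-1.45) and HOXD11 (-1.56); the cause was not tested. The median siRNA ratio of 0.38 was 0.27 with library totals, and 29 members with 3 tags in every library were 15 with 10 tags. The authors' expression value gave the same order of the expressed members. After 365 nm 31 of 38 members had 3 tags in each library, against 35 with 4SU, at total depths of 2402450 and 2869446 tags against 2289523 and 3053932.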

Other observations

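Regulators of the HOX clusters were counted from lists that were not trimmed by their values, with edgeR adjusted p over all genes. Over all genes 33.7% were called lower and 26.1% higher after 365 nm with a median log2 fold change of -0.50, 28% lower and 25.2% higher after 254 nm with a median of -0.14, and 3.69% lower and 3.85% higher with 4SU alone with a median of 0.02. Of 25 tested Polycomb genes, which keep HOX genes silent, 14 were lower and 2 higher after 365 nm against 4SU, with a median of -1.48, 9 were lower and 3 higher after 254 nm, with a median of -0.46, and 1 was higher with 4SU alone. JARID2, which helps recruit the repressive complex, averaged 6.55 ± 4.52 CPM after 4SU with 365 nm, against 43.1 ± 9 CPM with 4SU. SUZ12, a core subunit of the H3K27 methyltransferase, averaged 13 ± 4.63 CPM after 254 nm, against 94.9 ± 38.4 CPM in untreated cells, and PHC3 averaged 5.14 ± 0.4 CPM after 254 nm, against 36 ± 12.3 CPM in untreated cells. PCGF2 was the Polycomb gene higher with 4SU, at 90.7 ± 12.4 CPM against 36.2 ± 10.4 CPM in untreated cells. Of 17 Trithorax and associated genes, which keep HOX genes active, 12 were lower and 2 higher after 365 nm, with a median of -1.56, and 9 lower and 2 higher after 254 nm, with a median of -1.19. The elongation factor genes AFF1 and AFF4 had log2 fold changes of -3.31 and -3.24 after 254 nm, and the methyltransferase gene KMT2C had -2.67 both after 365 nm and after 254 nm. With 4SU alone ASH2L (-1.28) and PSIP1 (-1.26) were lower and MLLT1 (1.21) was higher.

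Retinoic acid, made from vitamin A, switches on 3′ HOX genes in the embryo. Of 14 tested genes of its pathway, 5 were higher and 5 lower after 365 nm, 3 higher and 1 lower after 254 nm, and 1 higher and 1 lower with 4SU alone. The share lower after 365 nm and the share higher after 254 nm were near those of all genes. ALDH1A1, which makes retinoic acid, averaged 11.6 ± 2.58 CPM after 4SU with 365 nm, against 0.469 ± 0.663 CPM with 4SU (SD, n = 2 each). The binding protein gene CRABP1 had a log2 fold change of 3.67 after 365 nm, and CYP26B1, which breaks retinoic acid down, had -3.54. NRIP1, a corepressor of nuclear receptors, had -3.27 after 254 nm. With 4SU alone RARA, a retinoic acid receptor, averaged 38.6 ± 7.72 CPM, against 15.2 ± 5.73 CPM in untreated cells, and ALDH1A3 had a log2 fold change of -1.73. By DESeq2, 7 genes of this list were called after 365 nm, 4 after 254 nm and 0 with 4SU alone, so neither RARA nor ALDH1A3 was called. Of 7 tested neighbours of the clusters and CTCF, 2 were lower after 365 nm, 4 lower and 1 higher after 254 nm and 1 lower with 4SU. DESeq2 called 1, 4 and 0 of this list in the same comparisons. With TMM factors, CDX2, the tested member of the caudal and ParaHox list, and GMNN, which encodes geminin, were each called higher after 254 nm. CDX2 averaged 16.9 ± 0.197 CPM after 254 nm, against 6.38 ± 3.03 CPM in untreated cells. GMNN averaged 326 ± 5.03 CPM after 254 nm, against 138 ± 0.819 CPM in untreated cells. Both were named after their values were seen. Scaled by library totals instead, CDX2 had 16.5 and 13.3 CPM after 254 nm, against 13.9 and 6.68 CPM in untreated cells. Its groups thus overlapped with library totals. GMNN had 319 and 258 CPM after 254 nm with library totals, against 224 and 218 CPM in untreated cells, without overlap. No long noncoding RNA of the HOX loci was analysed here.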
